A study of Saccharomyces cerevisiae with 6 samples.

Results

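Transcript levels of 37 yeast genes for translation initiation, elongation and termination factors were followed on 6 one-colour arrays of Saccharomyces cerevisiae. The genes were listed by name, and each matched 1 of the 6256 probes through its locus tag. Of the 6 arrays, 3 held total RNA of cells fermenting 50 g/L xylose, taken at 9 h, and 3 held that of cells fermenting 50 g/L glucose, taken at 3 h. The sampling time differed along with the sugar, and effects of the one cannot be told apart from effects of the other. A further label of the glucose samples reads 9 h; their titles, time labels and the design text give 3 h, which was used. The strain, any genetic change it carries and the oxygen supply of the cultures are unstated in the labels. They number the replicates as fermentation runs but do not say whether these were separate cultures, so the spread behind the p-values may be technical. The study asked which yeast promoters serve during growth on xylose, and the promoters of some of these genes, such as TEF1, are in common use in yeast engineering.

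Initiation factors bring the small ribosomal subunit and the initiator tRNA to the capped mRNA and let it scan for the start codon. Elongation factors then deliver aminoacyl-tRNAs, move the ribosome along the mRNA and clear spent tRNAs, and release factors free the finished protein at a stop codon. In yeast several of these factors are encoded by pairs of near-identical genes, and their transcripts are among the abundant ones in growing cells, where their synthesis is known to go along with that of ribosomal proteins.

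A level here is the log2 processed signal less the 75th percentile of its array, and a difference is xylose minus glucose on that scale. These values say nothing of total RNA, and levels of different probes cannot be ranked against each other. RNA came from whole cultures, so fewer cells with a transcript and less of it per cell cannot be told apart. All 37 probes were well above background on all 6 arrays and none was saturated, so each member was measured and none was lost to a filter. Precision is limited by there being 3 arrays per sugar. The spread between the 7 spots of a member's probe was small: its largest SD on any array had a median of 0.16 over the members. It exceeded 0.5 for 4 of them, NIP1, TIF11, FUN12 and GCD1, in each case with its highest value on glucose replicate 3.

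The arrays did not all fall with their groups. Xylose replicates 1 and 2 were nearly the same for these genes, with a median absolute difference of 0.036 over the members, against 0.24 to 0.66 for the other pairs of arrays. Glucose replicate 2 stood apart. LEU2 and MET17, enzymes of leucine and methionine synthesis that laboratory strains often lack, stood there at 0.34 and 4.57, whereas neither was well above background on any other array. URA3, of uracil synthesis, stood there at 6.35 against 0.99 to 1.82 on the others, and the asparaginase gene ASP3-1, at 2.87 to 3.99 on the other arrays, was not well above background. Slide 1 carried replicates 1 and 2 of both sugars and slide 2 carried replicate 3 of both. Values are accordingly given over the 6 arrays and with glucose replicate 2 left out; that array was singled out on earlier results of these data and not on the labels.

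With all 6 arrays none of the 37 translation factor genes differed between xylose and glucose past the threshold, an adjusted p under 0.05 from limma. At an unadjusted limma p under 0.05 there were 2, TEF4 and YEF3. This was a smaller share than that of all genes tested, so reaching this level does not set them apart. Over all genes tested, 149 of 5907 (2.52%) passed, 84 of them higher in xylose (1.42%) and 65 lower (1.10%), or 310 with the replicate number as a block, with which no member passed either. The differences of the members were small, from -0.98 for GCD6 to 0.77 for HYP2, and 31 of the 37 lay within 0.5 either way. Their median was 0.043, beside 0.021 for all genes tested. For 20 of the 37 (54.1%) the 95% confidence interval of the difference lay within 2-fold either way, against 34.4% of all genes tested. The intervals of the other 17 reached beyond 2-fold, and for these the data do not show whether the sugars differed.

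**Figure D1:**
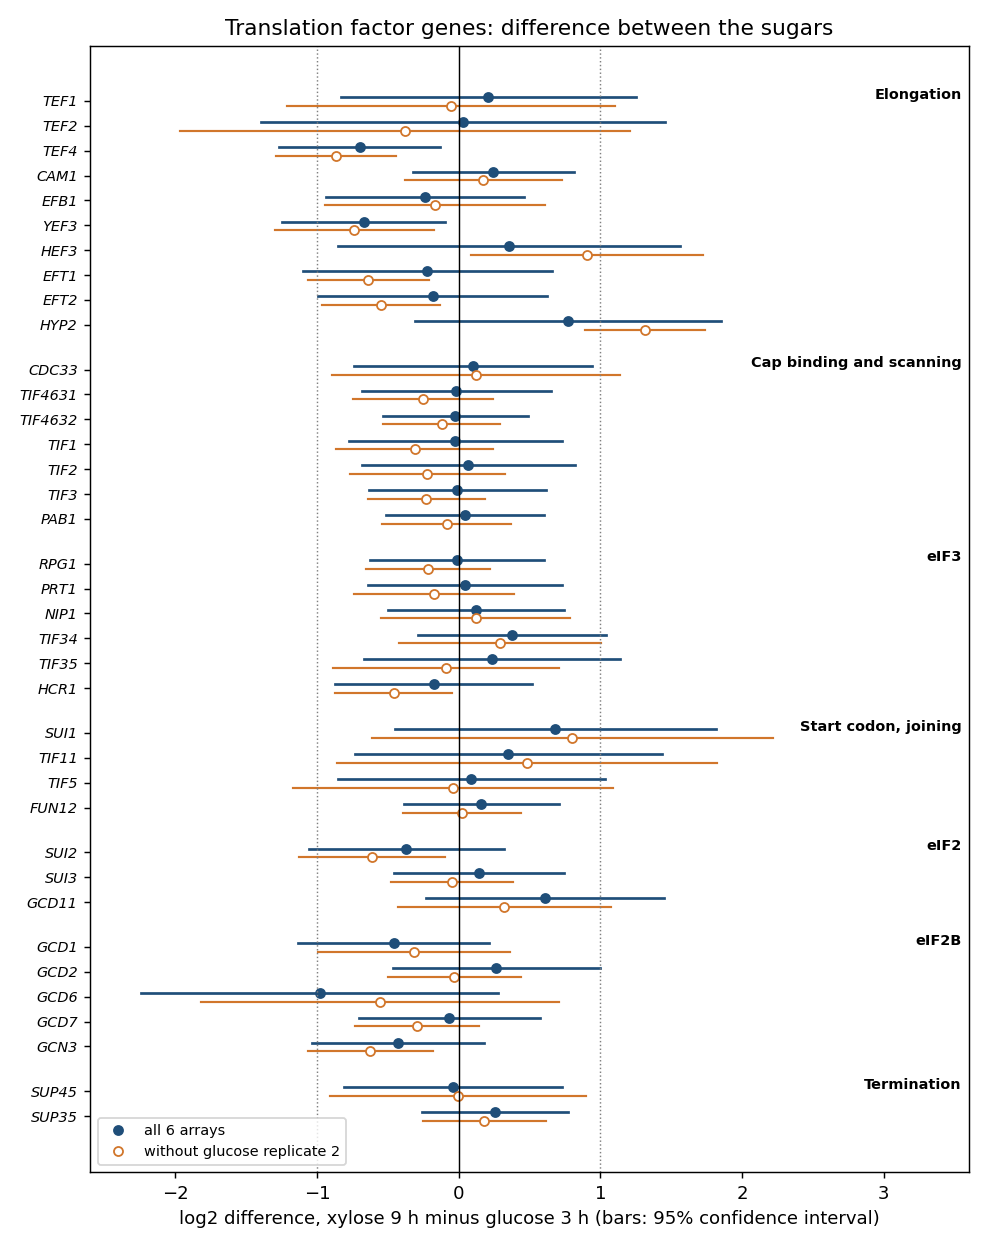
Log2 difference between xylose at 9 h and glucose at 3 h (horizontal axis) for the 37 genes, grouped by role, with all 6 arrays (filled) and without glucose replicate 2 (open); bars are 95% confidence intervals from limma and dotted lines mark 2-fold. Most points lie within 0.5 of 0, and HYP2 and TEF4 are the genes that passed the threshold without glucose replicate 2.

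Without glucose replicate 2, HYP2 rose and TEF4 fell, the 2 members called there, beside 682 of 5907 genes in all (11.5%). The background was 5.89% for rises and 5.65% for falls. The median of the members was then -0.12, beside 0.042 for all genes. A negative difference was seen for 26 of the 37 (70.3%), against 47.0% of all genes. The xylose and glucose arrays that remained did not overlap for 15 members. For 12 of these (32.4%) the xylose arrays were lower, where the background was 20.2%. For 3 (8.11%), HYP2, HEF3 and SUP35, they were higher, where the background was 21.8%. With all arrays the groups did not overlap for TEF4 and YEF3, which were lower in xylose (background 10.9%), and for SUP35, which was higher (background 12.6%).

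HYP2 (YEL034W), the member with the largest positive difference, encodes eIF5A, the factor that carries the modified amino acid hypusine and helps the ribosome past stretches it translates poorly. HYP2 stood at 3.604, 3.705 and 3.709 in xylose replicates 1 to 3, against 2.392, 3.997 and 2.318 in glucose replicates 1 to 3. All 3 xylose arrays lay above glucose replicates 1 and 3, and glucose replicate 2 was the highest of the 6. Over all 6 arrays the difference was 0.77 ± 0.46 (SE, n = 3 against 3, limma adjusted p = 0.474). It was 1.32 ± 0.17 without glucose replicate 2, a rise of 2.49-fold (limma adjusted p = 0.0128). The call rests on leaving out that array, on counting xylose replicates 1 and 2 as separate samples and on the centring. With the average of those replicates as 1 sample the limma adjusted p was 0.0877, and with centring on the spike-in controls the difference was 0.46 (limma adjusted p = 0.686). The spike-in centring moved the median of all genes to -0.81, against the direction of the HYP2 rise. What sets glucose replicate 2 apart, its LEU2, MET17, URA3 and ASP3-1 levels included, moves with this result, and its part in it was not tested. Within slide 1 the difference was 0.46, and between the 2 arrays of slide 2 it was 1.39.

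ANB1 (YJR047C), not among the 37 genes, encodes the other yeast form of eIF5A. HYP2 is known as the form made with oxygen and ANB1 as the form made when oxygen is scarce, ANB1 being repressed by Rox1 when heme is present. ANB1 stood at 0.58, 0.39 and 0.66 in xylose replicates 1 to 3, against 3.00, -3.82 and 2.79 in glucose replicates 1 to 3. Thus the arrays fell into 3 sets, the same for both genes but in opposite order: glucose replicates 1 and 3 had the highest ANB1 and the lowest HYP2, the 3 xylose arrays lay between, and glucose replicate 2 had the lowest ANB1 and the highest HYP2. With all arrays ANB1 differed by -0.11 ± 1.69 (limma adjusted p = 0.985), a wide interval that shows nothing about its direction. Leaving out glucose replicate 2, it fell by 2.35 on the log2 scale, or 5.10-fold (SE 0.19, limma adjusted p = 0.00447). That call held with xylose replicates 1 and 2 averaged (limma adjusted p = 0.0359) and with centring on the spike-in controls (0.00205). The spike-in centring moved the median of all genes to -0.81, the direction of this fall, so the call holding there adds little.

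The difference of ANB1 less HYP2 within each array compares how the copies moved. It averaged -3.13 ± 0.16 in xylose and -2.25 ± 4.82 in glucose (SD, n = 3 each; exact two-sided permutation p = 1). With glucose replicate 2 left out the contrast of the sugars was -3.67, with an exact permutation p = 0.1, which is the smallest that either design allows. It was 1 of 4 such pairs tested, and no pair could pass 0.05.

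**Figure D2:**
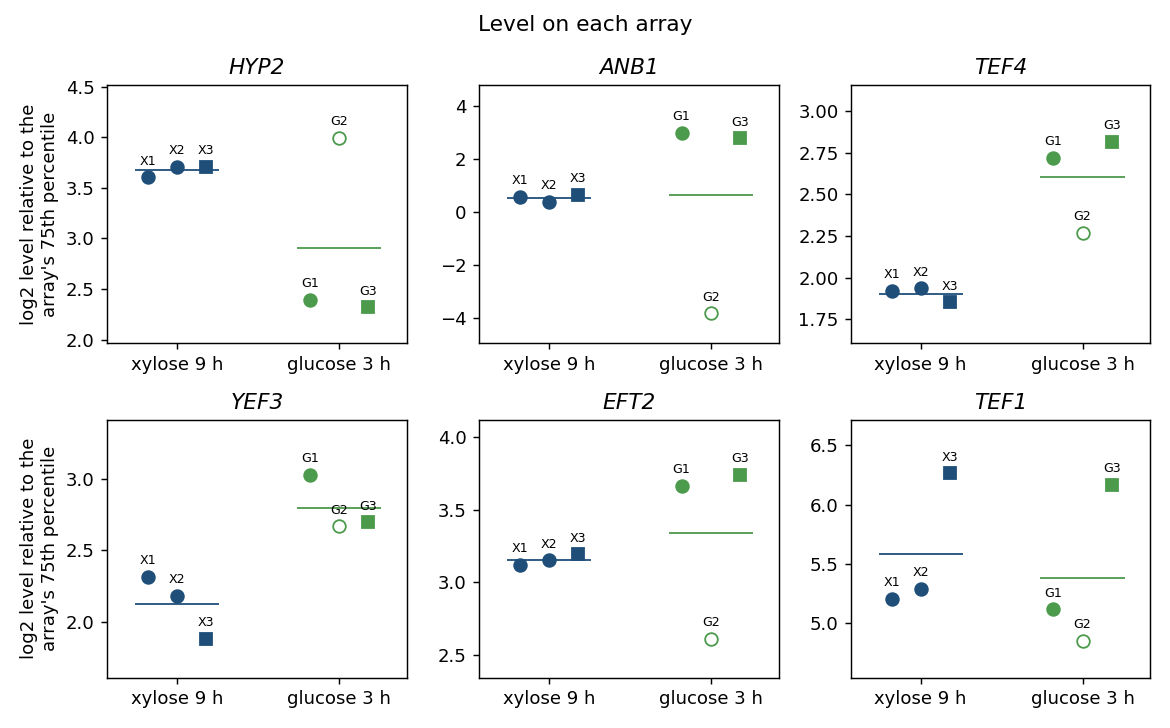
Log2 level relative to the array's 75th percentile (vertical axis) of HYP2, its copy ANB1, TEF4, YEF3, EFT2 and TEF1 on each array, xylose (X1 to X3) left and glucose (G1 to G3) right; squares mark slide 2, the open circle marks glucose replicate 2, and lines are group means. HYP2 and ANB1 run in opposite order, TEF4 and YEF3 show no overlap of the groups, and TEF1 is highest on both slide 2 arrays.

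The elongation factor eEF1 delivers aminoacyl-tRNA to the ribosome through eEF1A and is recharged with GTP by eEF1B. TEF4 (YKL081W), 1 of 2 genes for the gamma subunit of eEF1B, stood at 1.92, 1.94 and 1.85 in xylose replicates 1 to 3, against 2.72, 2.27 and 2.82 in glucose replicates 1 to 3. All 3 xylose arrays lay below all 3 glucose arrays. The difference was -0.70 ± 0.24 with all arrays (limma adjusted p = 0.207). Without glucose replicate 2 TEF4 fell by 0.87 on the log2 scale, or 1.82-fold (SE 0.17, limma adjusted p = 0.0342). With xylose replicates 1 and 2 averaged as well, the limma adjusted p was 0.175, and with spike-in centring as well the difference was -1.72 (limma adjusted p = 0.209), so either choice ends the call. The other gamma gene, CAM1 (YPL048W), stood at 2.77, 2.84 and 3.11 in xylose, against 2.53, 2.52 and 2.93 in glucose, a difference of 0.24 ± 0.24 (limma adjusted p = 0.683), or 0.17 ± 0.22 with glucose replicate 2 left out.

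Within each array CAM1 less TEF4 averaged 1.003 ± 0.22 in xylose and 0.058 ± 0.22 in glucose (SD, n = 3 each). The groups did not overlap, and the contrast was 0.94 with an exact two-sided permutation p = 0.1, the smallest that 3 against 3 allows (0.4 after Benjamini-Hochberg over the 4 pairs). EFB1 (YAL003W), the exchange subunit of eEF1B, differed by -0.24 ± 0.30, or by -0.17 ± 0.31 with glucose replicate 2 left out.

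TEF1 (YPR080W) and TEF2 (YBR118W) encode the same eEF1A protein, so their probes may not tell them apart. TEF1 stood at 5.21, 5.29 and 6.26 in xylose replicates 1 to 3, against 5.12, 4.85 and 6.17 in glucose replicates 1 to 3. TEF2 stood at 5.06, 5.07 and 6.41 in xylose, against 5.09, 4.67 and 6.70 in glucose. For both, replicate 3 was the highest array of its sugar, and the sugars overlapped. Both arrays of slide 2 lay above all 4 of slide 1, by 1.097 on average for TEF1 and 1.58 for TEF2. The difference between the sugars was 0.21 for TEF1, with a 95% confidence interval of -0.83 to 1.25, and 0.03 for TEF2, with an interval of -1.40 to 1.46. With glucose replicate 2 left out both signs turned, to -0.054 ± 0.46 for TEF1 and -0.38 ± 0.64 for TEF2. Within slide 1 and slide 2 the differences were 0.26 and 0.098 for TEF1, and 0.19 and -0.29 for TEF2. With the slide as a block the limma adjusted p was 0.347 for TEF1 and 0.933 for TEF2. Neither 6-array interval, fitted without the slide, lies within 2-fold, so with this spread neither transcript was shown to be alike or unlike in the sugars.

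Translocation needs eEF2, from EFT1 and EFT2, and in fungi also eEF3, from YEF3, with HEF3 as its little-used copy. YEF3 (YLR249W) stood at 2.32, 2.18 and 1.88 in xylose replicates 1 to 3, against 3.03, 2.67 and 2.70 in glucose replicates 1 to 3. All 3 xylose arrays were the lower, by -0.67 ± 0.24 (limma adjusted p = 0.226), and by -0.74 ± 0.22 with glucose replicate 2 left out (0.0982). HEF3 (YNL014W) stood at -0.50, -0.41 and -1.24 in xylose, against -1.37, 0.03 and -1.87 in glucose, and glucose replicate 2 was again the highest array. Its difference was 0.35 ± 0.51 over the 6 arrays, or 0.91 ± 0.33 if glucose replicate 2 was left out (limma adjusted p = 0.146). HEF3 less YEF3 within an array averaged -2.84 ± 0.26 in xylose and -3.87 ± 1.07 in glucose (SD, n = 3 each; exact two-sided permutation p = 0.3, and 0.1 without glucose replicate 2, the smallest it allows).

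EFT1 (YOR133W) and EFT2 (YDR385W) encode the same eEF2 protein, so their probes too may not tell them apart. EFT1 stood at 2.86, 2.74 and 2.87 in xylose, against 3.47, 2.22 and 3.45 in glucose. EFT2 stood at 3.12, 3.15 and 3.19 in xylose, against 3.67, 2.61 and 3.74 in glucose. For both, glucose replicates 1 and 3 lay above the xylose arrays and glucose replicate 2 below them. The differences were -0.22 ± 0.37 and -0.18 ± 0.34 with all arrays. They were -0.64 ± 0.17 and -0.55 ± 0.17 on the 5 arrays without glucose replicate 2 (limma adjusted p = 0.0702 and 0.0986).

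With all arrays the 7 genes for cap binding and scanning had the narrowest range of differences of the 7 roles. They were CDC33 for the cap-binding eIF4E, TIF4631 and TIF4632 for the eIF4G scaffolds, TIF1 and TIF2 for the helicase eIF4A, TIF3 for its partner eIF4B, and PAB1 for the poly(A)-binding protein. Their differences ran from -0.024 to 0.10, and all 7 had a 95% confidence interval within 2-fold. CDC33 (YOL139C), with the largest, stood at 0.25, 0.22 and -0.67 in xylose, against 0.24, -0.12 and -0.62 in glucose, so the lowest array of either sugar was that of slide 2. TIF1 (YKR059W) stood at 2.77, 2.69 and 2.42 in xylose, against 3.13, 2.07 and 2.74 in glucose. TIF2 (YJL138C) encodes the same eIF4A protein, so the probes of this pair may not tell its copies apart. TIF2 stood at 2.82, 2.79 and 2.53 in xylose, against 3.14, 2.07 and 2.72 in glucose. In both, glucose replicates 1 and 2 were the highest and the lowest of the 6 arrays. Glucose replicate 2 was the lowest of the 6 arrays for 6 of the 7 genes (85.7%), against 25.2% of all genes tested. Without it the 7 differences ran from -0.31 to 0.12, with 6 below 0 (85.7%, against 47.0% of all genes) and none past the threshold. Of the 7 intervals 6 then lay within 2-fold, and for 3 genes (42.9%, against 20.2% of all genes) the xylose arrays lay below the remaining glucose arrays. Of the eIF4G pair, TIF4632 less TIF4631 differed between the sugars by -0.0061 (exact two-sided permutation p = 1).

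eIF3 is the large complex that holds the initiating subunit and its partners together. Its 6 measured genes ran from -0.18 for HCR1 (eIF3j) to 0.38 for TIF34 (eIF3i), and 4 of them had an interval within 2-fold. TIF34 (YMR146C) stood at 1.75, 1.75 and 2.31 in xylose, against 1.37, 1.40 and 1.92 in glucose. Within either slide its xylose arrays were the higher, by 0.37 on slide 1 and 0.39 on slide 2, and the limma adjusted p was 0.574, or 0.0854 with the slide as a block. The core subunits RPG1 (eIF3a), PRT1 (eIF3b) and NIP1 (eIF3c) differed by -0.011, 0.043 and 0.12, and TIF35 (eIF3g) by 0.24. With glucose replicate 2 left out, the signs of PRT1 and TIF35 turned, to -0.18 and -0.091, RPG1 and HCR1 stood at -0.22 and -0.46, and NIP1 and TIF34 at 0.12 and 0.29. No eIF3 gene passed in either fit.

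Start codon choice rests on eIF1 and eIF1A, encoded by SUI1 and TIF11, on TIF5 for the GTPase activator eIF5, and on FUN12 for eIF5B, which joins the subunits. SUI1 (YNL244C) stood at 0.84, 0.84 and -0.37 in xylose, against 0.34, -0.004 and -1.06 in glucose. On each slide the xylose arrays were above the glucose arrays, by 0.67 on slide 1 and 0.70 on slide 2, while both slide 2 arrays lay below the rest. The difference was 0.68 ± 0.48 (limma adjusted p = 0.551), or 0.80 ± 0.57 with glucose replicate 2 left out (0.432). With the slide as a block SUI1 was the only member called (limma adjusted p = 0.0451), beside 690 genes in all. With the replicate number as a block its limma adjusted p was 0.0798. TIF11, TIF5 and FUN12 differed by 0.35, 0.09 and 0.16, and with glucose replicate 2 left out by 0.48, -0.04 and 0.023. SUI1, TIF11 and TIF5 were all lower on both slide 2 arrays than on all 4 of slide 1.

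eIF2 carries the initiator tRNA. Its gamma gene GCD11 (YER025W) stood at -0.07, 0.014 and 0.63 in xylose, against -0.38, -0.99 and 0.12 in glucose, a difference of 0.61 ± 0.36 (limma adjusted p = 0.464). Each xylose array lay above every glucose array of its slide, and the groups overlapped. The alpha gene SUI2, whose protein the kinase Gcn2 phosphorylates when amino acids are short, differed by -0.37 ± 0.29 and the beta gene SUI3 by 0.15 ± 0.26. The values were 0.32, -0.62 and -0.047 for GCD11, SUI2 and SUI3 with glucose replicate 2 left out.

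eIF2B recharges eIF2 with GTP and is inhibited by eIF2 that carries that phosphorylation. Of its 5 genes 4 had a negative difference with all arrays (80%), against 48.4% of all genes tested. Without glucose replicate 2 all 5 did, against 47.0% of all genes and 70.3% of the 37 members. No eIF2B gene passed either fit. GCD6 (YDR211W), the catalytic epsilon subunit, stood at -0.54, -0.58 and -1.66 in xylose, against 0.22, 0.91 and -0.97 in glucose. Each xylose array lay below every glucose array of its slide, and replicate 3 was the lowest of either sugar. The difference of -0.98 ± 0.53 was the largest in size among the members with all arrays and did not pass (limma adjusted p = 0.431). With glucose replicate 2 left out it was -0.55 ± 0.51 (limma adjusted p = 0.539), smaller in size than those of HYP2, HEF3, TEF4 and others. GCD1 (gamma), GCN3 (alpha) and GCD7 (beta) differed by -0.46, -0.43 and -0.066, and GCD2 (delta) by 0.27. With glucose replicate 2 left out these were -0.31, -0.62, -0.29 and -0.03.

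For termination, SUP35 (YDR172W), the GTPase eRF3, stood at 0.78, 0.71 and 0.90 in xylose, against 0.58, 0.38 and 0.66 in glucose. All 3 xylose arrays lay above all 3 glucose arrays, but the difference was small, 0.26 ± 0.22 (limma adjusted p = 0.622), with a 95% confidence interval of -0.26 to 0.77. SUP45, for eRF1, which reads the stop codon, differed by -0.041 ± 0.33. Both intervals lay within 2-fold. With glucose replicate 2 left out the differences were 0.18 ± 0.17 and -0.0063 ± 0.36.

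The arrays also differed within a sugar. Glucose replicate 2 was the lowest of the 6 arrays for 22 of the 37 (59.5%), against 25.2% of all genes tested. It was the highest of all 6 arrays for 4 members (10.8%), HEF3, HYP2, GCD1 and GCD6, against 26.2% of all genes tested. The 2 arrays of slide 2 lay outside the range of the 4 arrays of slide 1 for 17 members, 8 of them higher and 9 lower. At 45.9% this was near the 40.1% over all genes. What set the slides apart was not tested, since slide 2 held replicate 3 only.

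**Figure D3:**
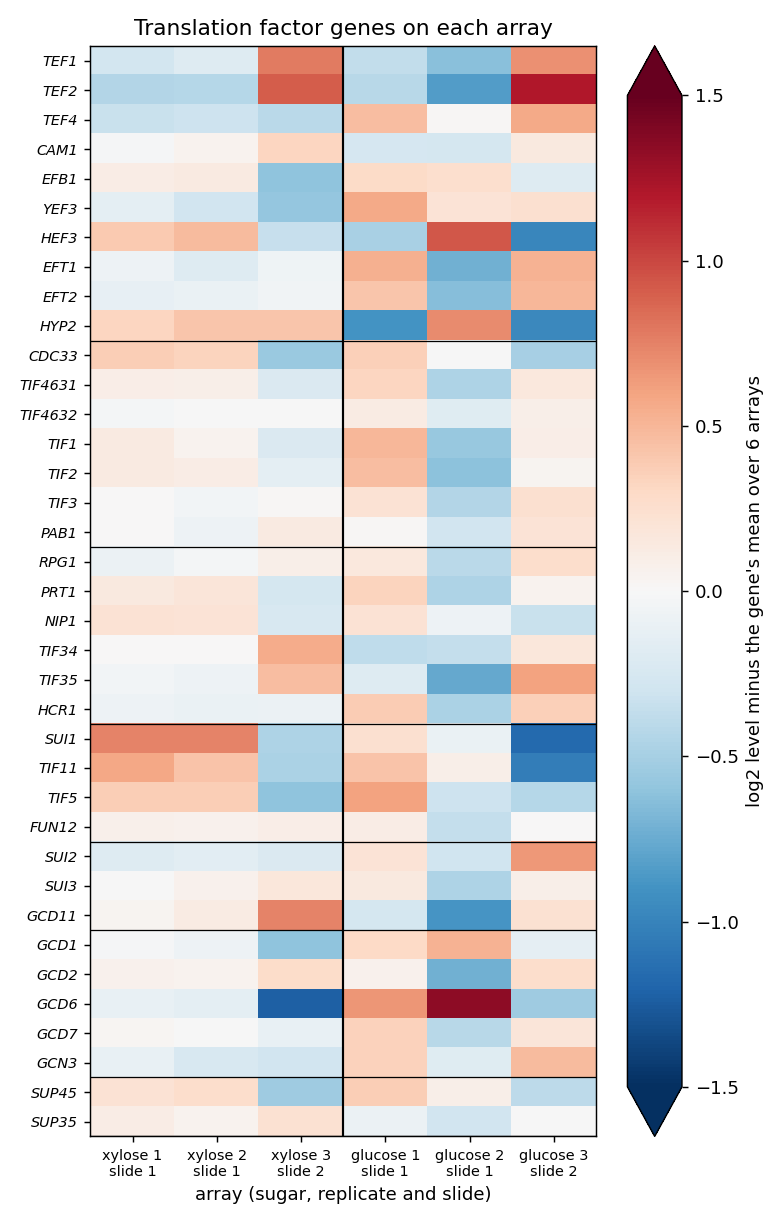
Log2 level of each of the 37 genes on each array minus the gene's mean over the 6 arrays (colour), with genes in rows by role and arrays in columns by sugar, replicate and slide. Glucose replicate 2 is the lowest array for 22 genes. For 17 genes, among them SUI1, TIF11, TIF5, TEF1 and TEF2, both slide 2 arrays lie above or below all 4 of slide 1.

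Other genes of translation were read from lists chosen beside the 37, and with all arrays none of the genes in them passed. In the list for hypusine and diphthamide, the modified residues of eIF5A and eEF2, the largest differences were 1.09 ± 0.50 for DPH1 and 0.68 ± 0.34 for KTI11, both of diphthamide synthesis. Of its 10 genes 2 fell with glucose replicate 2 left out, ANB1 and DYS1 (YHR068W), for an enzyme of hypusine synthesis on eIF5A. DYS1 stood at 0.46, 0.51 and 0.25 in xylose, against 1.68, 0.27 and 1.26 in glucose. Its difference was -0.67 ± 0.38 with all arrays (limma adjusted p = 0.451) and -1.07 ± 0.22 without glucose replicate 2 (0.0382, or 0.156 with xylose replicates 1 and 2 averaged as well and 0.153 with spike-in centring as well). DYS1 and GCN20 are named after their values were seen.

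Of 10 regulators, which include the kinase Gcn2 that acts on eIF2 and the eIF4E-binding proteins, 1 passed without glucose replicate 2. This was GCN20 (YFR009W), a partner of Gcn1 in switching on Gcn2, at -1.11 ± 0.18 (limma adjusted p = 0.0219). The call ended with xylose replicates 1 and 2 averaged as well (limma adjusted p = 0.129) and with spike-in centring as well (0.138). With all arrays the largest differences in that list were -0.70 ± 0.29 for GCN1 and -0.62 ± 0.43 for GCN20. Among 14 genes for helicases, recycling and rescue the largest were 0.80 ± 0.46 for the helicase DBP1 and 0.46 ± 0.42 for DOM34, a rescue factor of stalled ribosomes, and none passed either fit. The 8 mitochondrial translation factors had a median of 0.52, or 0.34 without glucose replicate 2, with 7 of 8 above 0 in both. None passed either fit, the largest being MEF1 at 0.78 ± 0.23 and TUF1 at 0.67 ± 0.43, both elongation factors. With the slide as a block MEF1 and KTI11 passed as higher (limma adjusted p = 0.0416 for each), beside 379 of 5907 genes in all.

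The 137 cytosolic ribosomal protein genes had a lower median difference than the translation factors. It was -0.47 with all arrays, with 124 below 0, and none passed the threshold. At an unadjusted limma p under 0.05 there were 9, a smaller share than that of all genes tested. The largest differences were -1.25 ± 0.53 for RPS22A and -1.11 ± 0.34 for RPL7B. Without glucose replicate 2 the median was -0.96, 132 were below 0 (96.4%) and 49 fell (35.8%), beside 1 fall among the 37 translation factors (2.70%), where over all genes 47.0% were below 0 and 5.65% fell. With xylose replicates 1 and 2 averaged as well 0 of the 137 passed limma's threshold, beside 97 of all 5907 genes. In that fit 77 of the 137 had an unadjusted limma p under 0.05, beside 1115 of all genes. With spike-in centring and glucose replicate 2 left out 6 of the 137 fell, beside 134 of all genes. No test of the difference between these lists was made. Like the translation factors, these genes were often lowest in glucose replicate 2, in 67.9% of cases.

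**Figure D4:**
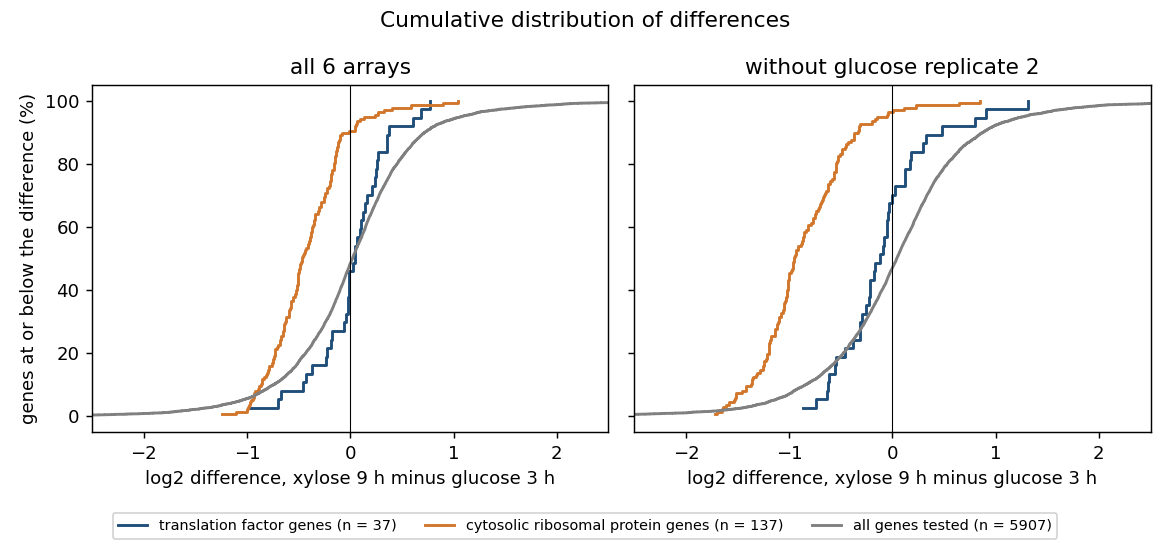
Share of genes (vertical axis, percent) at or below a given log2 difference between xylose at 9 h and glucose at 3 h (horizontal axis) for the 37 translation factor genes, 137 cytosolic ribosomal protein genes and all 5907 genes tested, with all arrays (left) and without glucose replicate 2 (right). Around the middle of each panel the ribosomal protein genes lie left of both other curves, with medians of -0.47 and -0.96, and the translation factors have medians of 0.043 and -0.12.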

How the data were processed

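The authors read spot intensity from scans of 1-colour (Cy3) arrays with Feature Extraction 10.1.1.1, Agilent's software, per the file headers. The deposited processed intensity is background-subtracted and detrended, per the file headers. The deposited table of log2 values lay on the same scale up to a constant per array, with column medians from -1.41 to -1.23. No header or label says how it was made.

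Control spots were left out, and so were non-uniform and outlying spots, 727 to 1722 of the 43792 non-control spots per array. Log2 processed signal less the array's 75th percentile (1407 to 3871 units) was averaged over the 7 spots of a probe. Probes with over 0.5 of their spots well above background on 3 or more of the arrays entered the test, 5907 of 6256, and 5756 probes were named by locus tag from a RefSeq table of assembly R64. No coordinates or sequences are printed, since the files name no build and hold no probe sequences. limma 3.58.1 in R 4.3.3 (two-sided, adjusted by Benjamini-Hochberg across every tested gene) fitted sugar alone. It was tested on simulated data. Copies were compared by exact permutation tests.

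Same-numbered arrays deviated from their group means together (r = 0.40, 0.22 and 0.71 for numbers 1, 2 and 3, across genes), so the replicate number was also fitted as a block. Xylose replicate 2 matched glucose replicate 1 better (0.41), and glucose replicate 2 matched xylose replicate 1 better (0.25). For numbers 1 and 2, which shared slide 1, these values thus do not show a pairing by number.

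The members and lists were chosen with earlier results of these data known. Values on every array are given for members called with all arrays or without glucose replicate 2, for copies, and for the member with the largest difference in each role. YEF3, HEF3 and CAM1 are given as members of pairs. Of the other lists, genes called or the 2 with the largest difference are named. The normexp alternative used the median spot signal, since the files hold no mean.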

Additional observations from a re-analysis of the deposited data

How the results depend on the processing

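No translation factor gene was called, up or down, with quantile normalization, normexp, median centring, no filter or a stricter filter on dim probes, outlying spots kept, the deposited table, spike-in centring, the replicate block or within slide 1, nor with xylose replicates 1 and 2 averaged. Leaving out each array in turn gave 0 to 1 members called up and 0 to 1 called down, the calls coming without glucose replicate 2. It gave 9 to 348 of all genes called up, 3 to 334 down, and 0 to 52 genes of the other translation lists down. The replicate block gave 163 and 147 genes up and down, and changed no call of a member or listed gene. The slide block gave 379 and 311, 1 member up and 2 listed genes up. Within slide 1 both counts over all genes were 0, with 987 genes at an unadjusted p under 0.05 by limma, and with xylose replicates 1 and 2 averaged they were 9 and 3. Spike-in centring moved the median of all genes to -0.67 and that of the members to -0.65, and gave 23 genes up and 108 down. That scale leans on glucose replicate 1, whose spike-in level relative to the 75th percentile was -0.56 against 0.65 or more elsewhere. The median of the members was -0.17 within slide 2.

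Alternatives chosen after seeing the data combined the omission of glucose replicate 2 with another choice. With spike-in centring 24 genes were up and 134 down, 7 of them in the other lists, and the members' median was -0.97, HYP2 differing by 0.46 (limma adjusted p = 0.686). With xylose replicates 1 and 2 averaged, 55 were up and 42 down, 1 of them listed, with a members' median of -0.16. With the slide block 1993 were up and 1819 down, with 18 and 140 listed genes and 7 and 18 members. Here TIF2 (-0.28), PRT1 (-0.24) and TIF5 (-0.21) passed as lower, against the sign with all arrays. Of the 2 residual degrees of freedom of this fit, 1 is the difference between xylose replicates 1 and 2, which were nearly alike, so its calls were not used.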
